A study of Homo sapiens with 18 samples.

Results

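The RNA of ABCC1-overexpressing BE(2)-m17 cells was compared between the third and the second of the study's RNA-seq experiments. BE(2)-m17 is an established human neuroblastoma cell line with an adrenergic, neuron-like character. The libraries were taken by their titles, which give the experiment, the line and a replicate number from 1 to 3, so that 6 of the 18 libraries of the series entered the comparison, 3 from each experiment. Both groups carried the same 2 vectors, pSBbi-Hyg-APP, which encodes the amyloid precursor protein, and pSBbi-Pur-ABCC1(WT), which encodes a codon-optimized ABCC1. The empty vector cells of the same experiments, used here only as a reference, carried pSBbi-Hyg-APP and pSBbi-Pur without an insert. All cells were plated at 14000000 per well, and RNA was taken on day 4. The labels number the experiments and do not say how the cells differed. The second experiment was taken as cryopreserved cells and the third as newly transfected cells, since the study names its repeat experiments in that order. The ABCC1 cells of the third experiment are then a new drug-selected population with its own insertions, and not the same cells measured again. The library kit and the sequencer were the same, but the transfection, the time in culture and the library preparation changed together with the experiment and cannot be told apart.

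ABCC1 is an ATP-binding cassette transporter that exports conjugated organic anions and drugs from cells. The vectors belong to the Sleeping Beauty system, in which a transposase pastes the cargo into many places of the genome, and a resistance gene in the same vector allows puromycin or hygromycin to select the cells that keep it. Each selected population is therefore a mixture of cells with different insertions. Most of the messenger RNA of a dividing cell is spent on a small number of functions, chief among them the proteins of the ribosome, whose genes are controlled together. Their mRNAs begin with a short run of pyrimidines behind a cytosine, known as a 5′ terminal oligopyrimidine motif, through which growth signals set their translation and stability.

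The counts on Ensembl genes came to between 23455111 and 30682665 per library in the second experiment and between 11181037 and 13229834 in the third. Although the libraries of the third experiment were less deep, they had a count on more genes, 50272 to 51168 against 41836 to 49099. Reads on 350 olfactory receptor genes, which neuroblastoma cells should not transcribe, served as a measure of background. On the scale of CPM used for all genes, counts scaled by the library total and the TMM factor of edgeR, they amounted to 0.164, 0.421 and 0.527 CPM per kilobase of exon in the second experiment and to 1.07, 0.880 and 0.846 in the third. The lowest of the 6 values belonged to replicate 1 of the second experiment, and the groups did not overlap. Scaled by the library total alone, the values were 0.124, 0.316 and 0.435 in the second experiment and 1.5, 1.09 and 1.05 in the third. A gene was called above background where its mean level over the 6 libraries was at least 5 times that of the olfactory receptor genes per kilobase, which held for 10642 genes, 78.6% of them protein coding. The study's methods describe a weekly plating of each line, but the labels tie no library to a week, so the p-values measure the spread between these libraries. Since each library is bulk RNA, fewer cells that express a gene and less of its RNA per cell cannot be told apart.

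Marker genes were checked against the label of the cell line. Of 10 adrenergic neuroblastoma markers, 9 were above background. The summed level of these markers was 3840 to 4270 CPM per kilobase in the second experiment and 2480 to 2770 in the third. Of 13 mesenchymal or fibroblast markers, 4 were above background (TWIST1, VIM, LUM and PDGFRB), and all 13 together summed to 156 to 188 CPM per kilobase in the second experiment and 80.4 to 87.9 in the third. Most of that sum came from TWIST1, VIM and LUM, whose means went from 91.8 to 44.7, from 45.2 to 16.2 and from 15.1 to 5.05 CPM per kilobase. Of the other 10, DCN was lower too (3.60 and 1.33), and 9 had a mean in the third experiment at or above that in the second, such as COL1A1 with 1.04 and 2.02. None of the 6 Schwann or glial, 5 immune, 4 epithelial, 3 endothelial and 2 erythroid markers checked was above background. The Schwann or glial markers summed to at most 6.70 CPM per kilobase in the second experiment and at most 11.8 in the third, a rise that moved with the olfactory receptor background.

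The vectors themselves were counted as separate sequences. Codon-optimized ABCC1 gave 4948, 3587 and 3975 CPM, of all assigned counts, in the 3 libraries of the second experiment and 4530, 4494 and 4398 in the third. Those ranges overlapped, and the ratio of the means was 1.07 (exact two-sided permutation p = 0.5). This result depended on the scale, and further scales were tried after the data were seen. On the TMM scale used for the genes, the values were 6658, 4829 and 4864 CPM and then 3255, 3672 and 3572, which did not overlap, with a ratio of 0.642 (exact permutation p = 0.1, the smallest possible). With the factors of the genes above background the ratio was 0.924 and the groups overlapped. The standard deviation, of assigned counts, was 701 in the second experiment and 68.5 in the third. The APP transgene gave 228 ± 21.8 and 251 ± 9.45 CPM of assigned counts (SD, n = 3 each, exact permutation p = 0.3), with a ratio of 0.661 and no overlap on the TMM scale of all genes and of 0.948 with overlap on that of the genes above background. The selection markers differed more. The puromycin resistance sequence, carried by the ABCC1 vector, stood at 6134, 5781 and 5384 CPM in the second experiment and at 2387, 2695 and 2679 in the third, a ratio of 0.449. Hygromycin resistance fell in the same sense from 514 ± 48.8 to 370 ± 5.47 CPM, a ratio of 0.721. For both markers the groups did not overlap, and the exact permutation p was 0.1, the smallest that 3 libraries against 3 allow. On the other scales both markers were lower in the third experiment too, without overlap, with ratios of 0.269 and 0.386 for puromycin and 0.433 and 0.621 for hygromycin resistance. On each of the 3 scales the ratio was lower for puromycin resistance than for the ABCC1 insert of the same vector, a difference that was not tested.

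Across all genes, the third experiment differed from the second in the transcripts of the ribosome and of the respiratory chain, which were lower, and in a large number of scarcely expressed genes, which were higher. With edgeR's quasi-likelihood test and Benjamini-Hochberg adjustment, 11304 of 34922 genes passed an adjusted p of 0.05 (32.4%), 4251 higher in the third experiment (12.2%) and 7053 lower (20.2%). The higher and the lower genes differed in level. Of the higher genes, 4107 (96.6%) were not above background, and of the lower genes, 6224 (88.2%) were above it. Protein-coding genes made up 57.8% of the higher and 91.1% of the lower genes, against 51.8% of all genes tested. The higher set also held 1355 genes (31.9%) with no count in any ABCC1 library of the first experiment, for which the labels and the study's methods name different library kits, against 51 (0.723%) of the lower set. Olfactory receptor genes moved with the higher set, but only 202 of the 350 passed the filter on counts. Of these, 32 were higher and 0 lower, with a median log2FC of 1.37 against 0.40 over all genes tested. A gene near the floor could pass the filter through the third experiment alone, so this direction was partly set by the filter. The number of higher genes depended on single libraries. It was 964, 1718 and 1924 without replicates 1, 2 and 3 of the third experiment in turn, and 2741 and 6434 without replicates 2 and 3 of the second, while the number of lower genes stayed between 5979 and 7249 without any 1 of the 6 libraries.

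**Figure D1:**
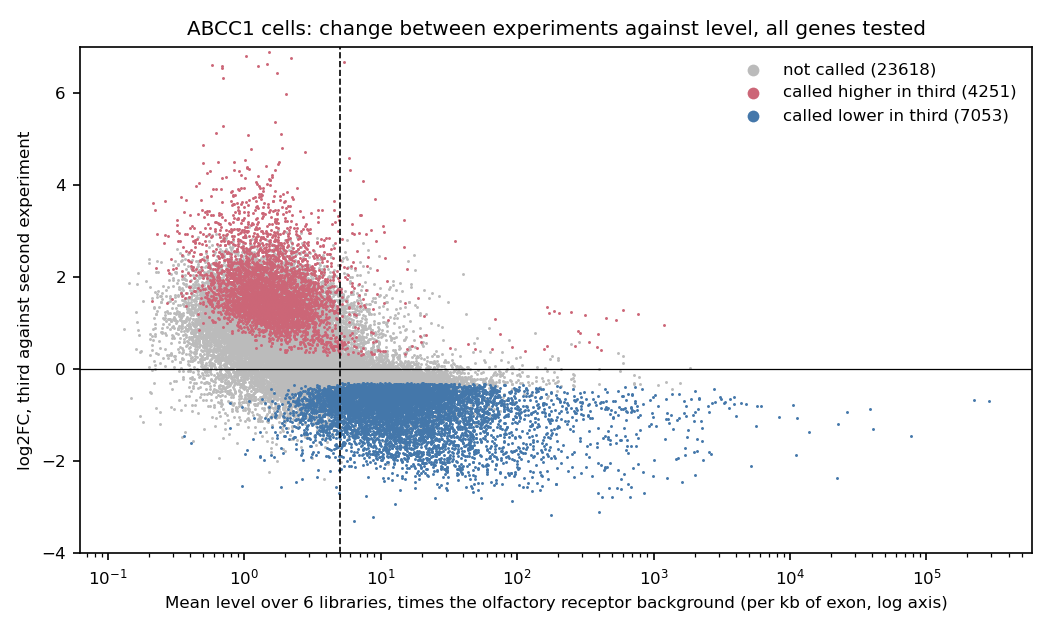
Each point is 1 of the 34922 genes tested, with its mean level over the 6 libraries as a multiple of the olfactory receptor background (horizontal log axis) and its log2FC, the third against the second experiment (vertical axis); the dashed line marks 5 times the background. Genes called higher (4251) crowd to the left of the line and genes called lower (7053) to its right.

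Because of this split, the median log2FC was 0.40 over all genes and -0.51 over the 10642 genes above background. The fit was therefore repeated on the genes above background alone, and the log2FC of that fit, called the relative log2FC below, states how a gene moved against the typical expressed gene, with a median of 0.01. In it 5412 genes passed (50.9%), 2306 higher (21.7%) and 3106 lower (29.2%). All 3106 of these lower genes were lower in the fit of all genes too, but only 138 of the higher ones were higher there, and 6 were lower there. A relative rise therefore states that a gene stood higher against other expressed genes, and most such genes were not called higher over all genes. Without replicate 1 of the second experiment, the library with the least background, the counts were 2406 higher and 3051 lower. In 7488 of the genes above background (70.4%) the CPM values of the experiments did not overlap.

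The mRNAs of the cytosolic ribosomal proteins were lower in the third experiment almost without exception. Together they took 10.9%, 11.8% and 10.9% of all counts on genes in the 3 libraries of the second experiment and 5.73%, 6.33% and 6.20% in the third. The means were 11.2% ± 0.511 and 6.08% ± 0.318 (SD, n = 3 each, exact two-sided permutation p = 0.1, the smallest possible), and the difference stayed between -5.25 and -4.80 percentage points without any 1 library. Of 80 ribosomal protein genes above background, 75 were lower in the relative fit and 0 higher, with a median relative log2FC of -1.14, against 29.2% lower and a median of 0.01 over all genes above background. In 45 of them the relative log2FC was below -1. The CPM values of the experiments were apart in all 80, against 70.4% of all genes above background. Over all genes 83 of 85 members tested were lower, and between 82 and 83 without any 1 library. Many ribosomal protein genes have processed pseudogenes that share their sequence, and RPL21, RPL23 and RPL13A contain small nucleolar RNA genes in their introns. Their single values are less certain for that reason than the list as a whole.

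**Figure D2:**
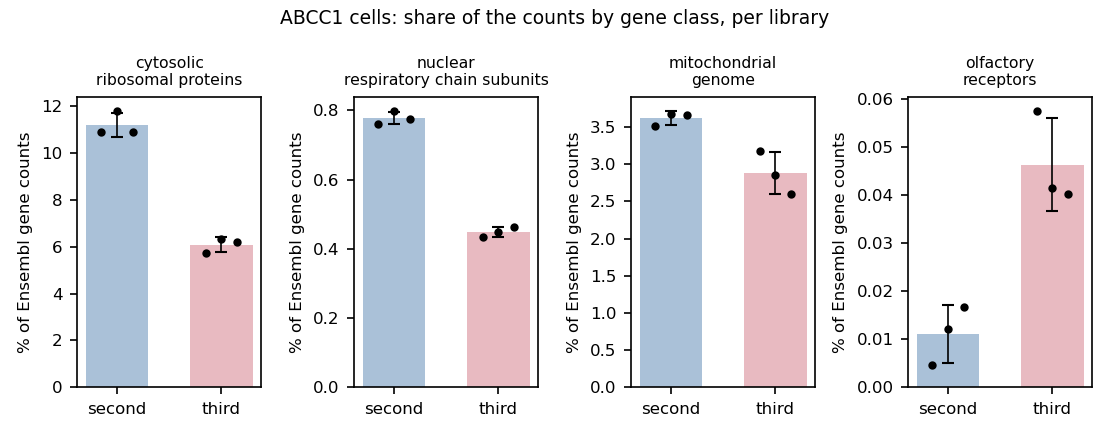
Percent of the counts on Ensembl genes taken by 4 gene classes in the ABCC1 cells of the second and the third experiment; points are libraries, bars are means and error bars the SD of 3 libraries. The ribosomal protein share lies between 10.9% and 11.8% in the second experiment and between 5.73% and 6.33% in the third.

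The transcription start is where a 5′ terminal oligopyrimidine motif would lie, so windows from 10 bases before to 20 bases after the RefSeq transcription start (GRCh38.p14) are shown for 6 ribosomal protein genes with strong and weak changes. Capitals mark CTTTC or CTTTT, and each window is given 5′ to 3′ on the strand of its gene.
RPL21, chr13:27251548-27251577, plus strand: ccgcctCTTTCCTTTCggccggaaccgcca
RPS24, chr10:78033853-78033882, plus strand: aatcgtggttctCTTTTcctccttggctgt
RPS25, chr11:119018324-119018353, minus strand: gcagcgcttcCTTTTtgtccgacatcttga
RPL13A, chr19:49487598-49487627, plus strand: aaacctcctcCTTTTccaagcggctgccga
RPL38, chr17:74203668-74203697, plus strand: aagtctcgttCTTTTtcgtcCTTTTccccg
RPL36, chr19:5690285-5690314, plus strand: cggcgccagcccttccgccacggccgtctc
CTTTC or CTTTT occurred on either strand of this window in 41 of the 64 ribosomal protein genes found in the promoter table (64.1%), in 9.92% of 7155 genes above background and in 12.5% of all 27305 promoters. CTTTC alone was in 42.2% of the ribosomal and 7.15% of all promoters, and CTTTT alone in 25% and 5.89%. The 2 motifs differ in their last base and cannot begin at the same position. With respect to a motif on the strand of the gene, the median relative log2FC was -1.15 in the 40 genes with a match and -1.06 in the 24 without.

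RPL21, a protein of the large subunit, stood at 2198, 2423 and 1910 CPM in the second experiment and at 276, 375 and 365 in the third. RPL7, also of the large subunit, fell from 2175, 2476 and 1971 to 271, 343 and 349 CPM. In both genes every library of the third experiment was far below every library of the second, with a log2FC of -2.68 ± 0.161 (SE) for RPL21 and -2.78 ± 0.156 for RPL7, and edgeR adjusted p of 8.68e-09 and 6.20e-09. RPS24 and RPS25, of the small subunit, had a relative log2FC of -2.08 and -2.03, and RPL23 one of -2.06. RPL13A, the most abundant of the list, fell from 12730, 14470 and 11700 CPM to 2535, 3379 and 3161, a relative log2FC of -1.58 ± 0.114. At the other end, 5 members were not called in the relative fit, RPL36, RPL38, RPL8 and RPS16 among them. RPL36 went from 831, 732 and 689 CPM to 490, 600 and 585, a log2FC of -0.43 (adjusted p = 0.0238) in the fit of all genes and 0.09 (adjusted p = 0.439) in the relative fit, so that its direction depends on the scale. The call over all genes was lost without replicate 1 or 2 of the second experiment or any replicate of the third (adjusted p between 0.0506 and 0.0749), while the log2FC lay between -0.57 and -0.36. RPL38, with a motif in its window, had a relative log2FC of -0.11 (adjusted p = 0.338). RPS25, RPL36 and RPL38 were chosen after their values were seen.

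EIF3E, a subunit of the initiation factor that binds the small ribosomal subunit, was among the 12 largest falls above background. It stood at 1216, 1421 and 1110 CPM in the second experiment and at 125, 151 and 144 in the third. Its log2FC was -3.16 ± 0.149 (edgeR adjusted p = 3.91e-09) and its relative log2FC -2.64. The rule for named genes also gave 3 noncoding genes that hold small nucleolar RNAs in their introns, ZFAS1, GAS5 and SNHG1, and no list of such host genes was tested. ZFAS1 fell from 543, 569 and 459 CPM to 64.6, 87.9 and 78.4, a relative log2FC of -2.25. The relative log2FC was -1.31 for GAS5 and -1.16 for SNHG1 (edgeR adjusted p = 2.67e-11 and 1.78e-09). ZFAS1 overlaps ZNFX1 and GAS5 overlaps GAS5-AS1, and since the counting did not use strand, their reads cannot be told apart.

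Nuclear genes of the respiratory chain followed the same direction with smaller changes. Their share of the counts was 0.761%, 0.797% and 0.776% in the second experiment and 0.435%, 0.447% and 0.463% in the third (exact permutation p = 0.1). Of 73 members above background, 54 (74%) were lower and 3 (4.11%) higher in the relative fit, with a median of -0.73. The shares over all genes above background were 29.2% and 21.7%. The falls were spread over the complexes. Complex I had 20 of 31 subunits lower with a median relative log2FC of -0.58, complex III 8 of 9 with -0.98, complex IV 10 of 11 with -1.01 and complex V 14 of 18 with -1.10. Complex II, which is also an enzyme of the citric acid cycle, had 2 of 4 lower and 1 higher, with a median of -0.25, and with the GC and length offsets 0 of its 4 were lower. NDUFS4, an assembly subunit of complex I, stood at 164, 180 and 162 CPM and then at 24.7, 27.5 and 28.7, a relative log2FC of -2.13 ± 0.094. COX7C, a small subunit of cytochrome c oxidase and the most abundant member, went from 1316, 1253 and 1206 CPM to 204, 251 and 265. UQCRB of complex III had a relative log2FC of -2.15, COX6C of complex IV -2.03 and NDUFA5 of complex I -1.91. None of these 5 genes, named for a large change or for abundance, overlapped between the experiments. The same held for 70.4% of all genes above background.

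The genes of the mitochondrial genome had smaller median changes than their nuclear partners, a difference that was not tested. All 37 of them took 3.61% ± 0.0953 of the counts in the second experiment and 2.88% ± 0.285 in the third (SD, n = 3 each, exact permutation p = 0.1). Among the 13 protein genes 5 (38.5%) were lower and 1 (7.69%) higher in the relative fit, with a median of -0.20. The shares over all genes above background were 29.2% and 21.7%. In the fit of all genes 12 of the 13 were lower and 0 higher. MT-ND4L had the strongest fall, from 534, 492 and 468 CPM to 192, 222 and 187, a relative log2FC of -0.79. MT-ND3 followed with -0.58, while MT-ND2, the most abundant per kilobase, had -0.24 (edgeR adjusted p = 0.0672). MT-ND4L overlaps MT-ND4, which had a relative log2FC of -0.32. LDHB, the lactate dehydrogenase subunit that favours the turnover of lactate to pyruvate, was among the 12 largest falls above background (chr12:21788276-21910791, GRCh37). It dropped from 1552, 1934 and 1568 CPM to 230, 255 and 258, with a relative log2FC of -2.25.

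The change of a gene moved with its base composition. Over the 8361 protein-coding genes above background, the relative log2FC and the GC content of the exons had a Pearson correlation of 0.50 and a Spearman correlation of 0.53, given as a description over genes that share libraries. The median relative log2FC was -0.61 in the fifth of genes with the lowest GC content (30.2% to 40.5%), -0.22, 0.08 and 0.19 in the next ones, and 0.14 in the highest (58.1% to 74.5%). Exon length had a weaker relation, with a Spearman correlation of 0.17. Ribosomal protein genes did not stand apart in composition, with a median GC content of 48.1% against 47.9% for all genes above background. With offsets for GC content and length in each library, 74 of 80 ribosomal protein genes were lower with a median of -0.99, and 51 of 73 respiratory chain genes with a median of -0.52. In that fit 4363 of 10239 genes passed (42.6%), 2375 lower (23.2%) and 1988 higher (19.4%). The offsets were added after the data were seen, and they reduce the value of single AT-rich genes more than that of the lists, as with RPL7 (-1.56), COX7C (-1.08) and NDUFS4 (-1.68).

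**Figure D3:**
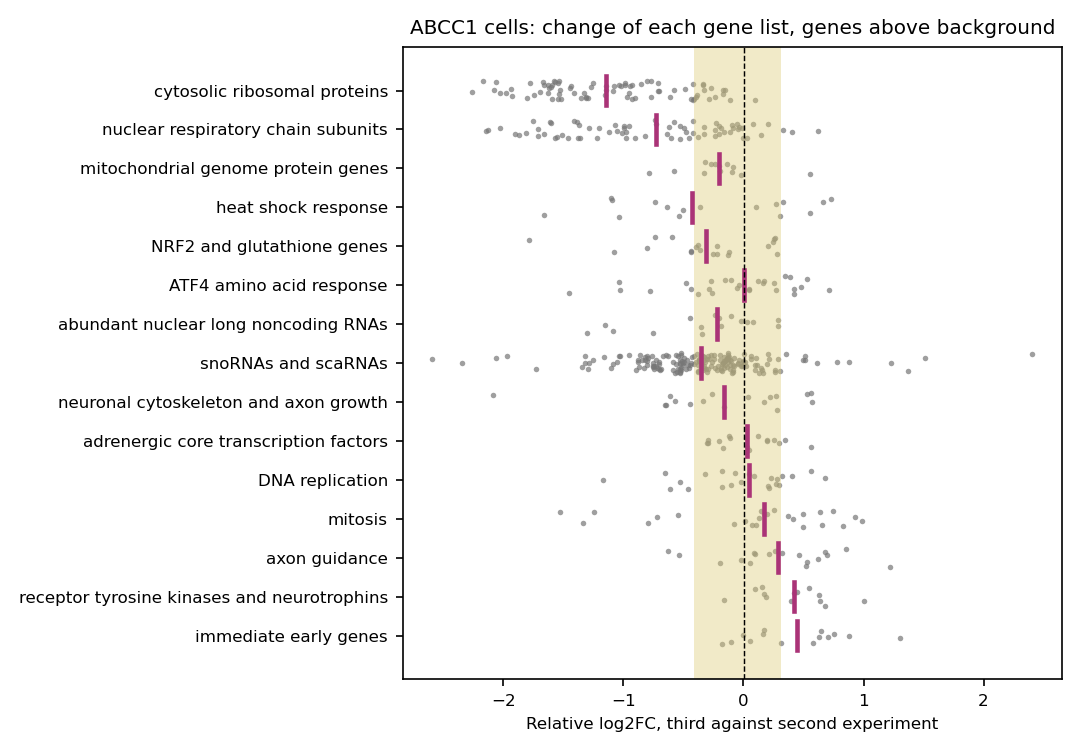
Relative log2FC, the third against the second experiment, of the genes above background in 15 gene lists; each point is a gene, each bar the median of a list, the dashed line the median of all 10642 genes above background and the shaded band their interquartile range. The medians of the ribosomal protein (-1.14) and respiratory chain (-0.73) lists lie to the left of the band, and those of the immediate early (0.45) and receptor tyrosine kinase (0.42) lists to its right.

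Small nucleolar and Cajal body RNAs, which guide the modification of ribosomal and spliceosomal RNA, were partly lower. Of 188 above background, 44 were lower and 1 higher in the relative fit, with a median of -0.35, so that the share called lower, 23.4%, was below that of all genes (29.2%). With the GC and length offsets the order was the other way round, 85 (45.2%) being lower against 23.2% of all genes, with a median of -0.95, and without replicate 1 of the second experiment 34 were lower and the median was -0.20. The brain-enriched SNORD114 cluster had 6 of 23 lower and 0 higher with a median relative log2FC of -0.70, the H/ACA box RNAs 16 of 67 with -0.30 and the Cajal body RNAs 8 of 17 with -0.55. SNORD114-20 was the extreme case, at 34.5, 36.8 and 29.9 CPM in the second experiment and 2.55, 4.02 and 5.12 in the third (relative log2FC -2.59). SCARNA7 had a relative log2FC of -1.97. RMRP, the RNA of a ribonuclease that processes ribosomal RNA and the most abundant of the nuclear noncoding list, had -0.34 (edgeR adjusted p = 0.0144), and -0.27 (adjusted p = 0.0788) without replicate 1 of the second experiment. Of the 16 abundant nuclear long noncoding RNAs above background, 6 were lower and 0 higher (4 and 2 with the offsets), and the share of that class did not separate the experiments (1.67% ± 0.196 against 1.73% ± 0.111, exact permutation p = 0.7).

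Stress response genes did not move as 1 block. In the heat shock list 9 of 16 genes (56.2%) were lower and 5 (31.2%) higher in the relative fit, against 29.2% and 21.7% of all genes above background, with a median of -0.43. With the GC and length offsets 7 (43.8%) were lower and 3 (18.8%) higher, against 23.2% and 19.4%, with a median of -0.089. HSP90AA1, the inducible cytosolic chaperone of the HSP90 family, fell from 2499, 2609 and 2215 CPM to 430, 594 and 595, a relative log2FC of -1.66 ± 0.109. HSPA8, the constitutive HSP70, and its partner DNAJA1 each had a relative log2FC of -1.10. The constitutive HSP90AB1 changed less, with -0.51. HSPA1A, the classic heat-induced HSP70 and chosen after its values were seen, had 8.28, 6.19 and 7.74 CPM and then 6.95, 10.4 and 8.59, which overlap. Its log2FC was 0.22 (edgeR adjusted p = 0.492) in the fit of all genes and 0.73 (adjusted p = 0.00473) in the relative fit. HSPA1A shares reads with a near-identical neighbour and is uncertain on that account.

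Among the genes of the NRF2 and glutathione list 12 of 20 (60%) were lower and 2 (10%) higher in the relative fit, against 29.2% and 21.7% of all genes above background, with a median of -0.31. TXN, the cytosolic thioredoxin that reduces protein disulfides, fell from 184, 212 and 156 CPM to 31.1, 39.8 and 40.7, a relative log2FC of -1.78. The relative log2FC was -1.08 for GSTA4, a glutathione transferase, and -0.80 for NFE2L2, which encodes the factor NRF2 itself. FTL, the ferritin light chain, had -0.22 (edgeR adjusted p = 0.0425). The GC and length offsets left GSTA4 at -0.26 and uncalled. In the list of the ATF4 amino acid response the counts balanced in the relative fit, 9 higher and 10 lower of 28 with a median of 0.01. In the fit of all genes 0 of 29 members were higher and 15 lower, with a median log2FC of -0.56. DDIT3, MTHFD2, ASNS and ATF4 were among the lower genes. DDIT3, the pro-apoptotic factor CHOP, went from 125, 111 and 114 CPM to 25.8, 31.9 and 31.6, a relative log2FC of -1.45 ± 0.095. MTHFD2 of mitochondrial folate metabolism had -1.04, ASNS, which makes asparagine, -1.03, and ATF4 itself -0.48. The unfolded protein response list had 4 of 20 higher and 4 lower in the relative fit, with a median of -0.01, and with the offsets 8 higher and 3 lower, with a median of 0.17. In the fit of all genes 0 of these 20 were higher and 13 lower.

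The genes that give neuroblastoma cells their adrenergic identity had a median change close to that of the typical expressed gene. Of 17 core transcription factors above background, 4 (23.5%) were higher and 3 (17.6%) lower in the relative fit, with a median of 0.03. The shares over all genes above background were 21.7% and 29.2%. In the fit of all genes 11 of the 17 were lower and 0 higher, where 6224 of all 10642 genes above background were lower. MYCN, the amplified oncogene of this cell line, was among the most abundant, with 6216, 6886 and 6162 CPM in the second experiment and 4003, 4218 and 4166 in the third. Its log2FC was -0.64 (edgeR adjusted p = 0.00289) over all genes, and -0.12 (adjusted p = 0.374) relative to expressed genes. PHOX2A, a homeobox factor, had a relative log2FC of -0.30 (adjusted p = 0.00735).

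Both neuronal lists were mixed. The list of neuronal cytoskeleton and axon growth genes had 8 of 17 lower and 5 higher in the relative fit, with a median of -0.16, and the synaptic vesicle list 5 of 15 lower and 4 higher, against 29.2% lower and 21.7% higher of all genes above background. In the fit of all genes these lists had 11 of 19 and 11 of 20 lower and 0 and 2 higher. RAB27B and SPOCK3 were members of neither list and were named as 2 of the 12 largest falls above background. RAB27B, a small GTPase that docks secretory vesicles (chr18:52385091-52562747, GRCh37), had the lowest log2FC of the genes named by the rule. It stood at 52.9, 61.4 and 55.3 CPM in the second experiment and at 5.36, 6.18 and 5.61 in the third, a log2FC of -3.30 ± 0.133 (edgeR adjusted p = 1.62e-09). SPOCK3, a proteoglycan of the nervous system, fell from 23.5, 54.2 and 41.3 CPM to 6.70, 6.76 and 4.08, and its values scattered most in the second experiment. STMN2, a microtubule regulator of growing axons, dropped from 323, 513 and 333 CPM to 68.4, 67 and 55.4, a relative log2FC of -2.09. The groups did not overlap in STMN2, as in 70.4% of all genes above background. For RAB27B and SPOCK3 the rule for the largest falls required this. SYT4, a synaptotagmin, had a relative log2FC of -1.34. SNAP25, a SNARE of vesicle fusion, had -0.45 in the relative fit and 0.20 once the offsets for GC content and length were added, so its direction was not stable.

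Catecholamine genes did not move together. PTS and GCH1, which make the tetrahydrobiopterin cofactor, had a relative log2FC of -1.13 and -1.03, and DDC, the decarboxylase that forms dopamine, had -0.56. TH, the tyrosine hydroxylase that uses this cofactor, was chosen after its values were seen. It had 32.8, 25 and 28.1 CPM in the second experiment and 36.4, 35.8 and 32.8 in the third, a log2FC of 0.29 (edgeR adjusted p = 0.0846) over all genes and 0.81 (adjusted p = 2.76e-06) relative to expressed genes. The former reached 0.38 (adjusted p = 0.0345) without replicate 1 of the second experiment. CHGA, the granule protein chromogranin A, moved with the typical gene, with a relative log2FC of -0.02. Of 13 genes in this list above background, 10 were lower and 0 higher in the fit of all genes. In the relative fit 5 (38.5%) were lower and 3 (23.1%) higher, against 29.2% and 21.7% of all genes above background. Of the 6 mesenchymal state genes above background, 3 were lower and 2 higher, and LUM, VIM and TWIST1 had a relative log2FC of -1.06, -0.96 and -0.52. LUM was no longer called with the GC and length offsets, at -0.21.

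Both cell cycle lists held genes that were higher and genes that were lower. In mitosis 11 of 25 genes (44%) were higher and 6 (24%) lower in the relative fit, with a median of 0.17, against 21.7% and 29.2% of all genes above background, and in DNA replication 7 of 23 were higher and 6 lower, with a median of 0.05. In the fit of all genes the counts were 2 higher and 13 lower of 25 for mitosis, with a median log2FC of -0.35, and 0 higher and 14 lower of 24 for DNA replication, with a median of -0.45, so that the direction of both lists depended on the scale. CDK1, the kinase that drives entry into mitosis, fell from 161, 153 and 158 CPM to 38.8, 38.6 and 53.5, a relative log2FC of -1.33. TTK, a kinase of the spindle checkpoint, had -1.53, CENPE, a motor of the kinetochore, -1.25, and RFC3, a subunit of the clamp loader, -1.17. PCNA, the sliding clamp itself, had -0.61. MKI67, the proliferation antigen Ki-67, went the other way, from 745, 536 and 640 CPM to 759, 937 and 971. Its groups did not overlap, with a log2FC of 0.47 (edgeR adjusted p = 0.0246) over all genes and a relative log2FC of 0.99. PLK1, a mitotic kinase chosen after its values were seen, had 0.41 (adjusted p = 0.0329) and 0.93. These were the 2 members of the mitosis list called higher in both fits. Over all genes MKI67 lost its call without replicate 2 (0.34, adjusted p = 0.149) or 3 (0.46, adjusted p = 0.0568) of the second experiment and without replicate 2 (0.34, adjusted p = 0.283) or 3 (0.32, adjusted p = 0.309) of the third. PLK1 lost it without replicate 2 of the second (0.27, adjusted p = 0.156) or replicate 1 (0.47, adjusted p = 0.0536), 2 (0.31, adjusted p = 0.265) or 3 (0.25, adjusted p = 0.344) of the third. Neither was called over all genes with RLE size factors (0.29 and 0.24). With the GC and length offsets 19 of 25 mitosis genes (76%) were higher against 19.4% of all genes, 4 (16%) were lower against 23.2%, and the median was 0.56.

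In the list of immediate early genes, which cells switch on within minutes of a stimulus, 8 of 14 (57.1%) were higher and 0 lower in the relative fit, with a median of 0.45. The shares over all genes above background were 21.7% and 29.2%. In the fit of all genes 6 of 26 members were higher and 5 lower, and of the 14 above background 1 was higher and 5 lower, where 144 of all 10642 genes above background were higher and 6224 lower. The 6 became 1 without replicate 1 or 3 of the third experiment, and 3 without replicate 2 of either experiment. DUSP5, a nuclear phosphatase induced by ERK signalling, was the member higher in both fits. It had 10.5, 11.4 and 11.2 CPM in the second experiment and 16.2, 16.8 and 24.2 in the third, a log2FC of 0.79 (edgeR adjusted p = 0.0029) and a relative log2FC of 1.31. Without replicate 3 of the third experiment the former was 0.49 (adjusted p = 0.0931). EGR1, an early response factor chosen after its values were seen, overlapped between the experiments (110, 90.7 and 137 CPM against 134, 147 and 154), and had a log2FC of 0.37 (adjusted p = 0.0556) over all genes, which became 0.51 (adjusted p = 0.0114) without replicate 3 of the second experiment. Its relative log2FC was 0.88 (adjusted p = 5.68e-06). JUN had a log2FC of -0.70 (adjusted p = 0.00135) over all genes and a relative log2FC of -0.18 (adjusted p = 0.147).

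In the list of receptor tyrosine kinases and neurotrophins 6 of 13 genes (46.2%) were higher and 0 lower in the relative fit, against 21.7% and 29.2% of all genes above background, with a median of 0.42. With the GC and length offsets 4 (30.8%) were higher, against 19.4% of all genes, and 1 lower, with a median of 0.24. In the fit of all genes 7 of 28 members were higher and 6 lower, and of the 13 above background 1 was higher and 5 lower. IGF2, the fetal growth factor, was called in both, from 1712, 1314 and 1344 CPM to 1755, 2246 and 2096, with a log2FC of 0.48 (edgeR adjusted p = 0.025) and a relative log2FC of 1.00 ± 0.109. The former was no longer called without replicate 2 (0.40, adjusted p = 0.133) or 3 (0.41, adjusted p = 0.0838) of the second experiment or replicate 2 (0.31, adjusted p = 0.341) or 3 (0.37, adjusted p = 0.263) of the third, nor with RLE size factors (0.30, adjusted p = 0.324). Axon guidance had 9 of 18 genes higher and 2 lower in the relative fit, and in the fit of all genes 6 of 40 were higher and 10 lower, of which 1 and 7 were among the 18 above background. PLXNA2, a semaphorin receptor, was higher in both fits, from 31.8, 30.6 and 46.9 CPM to 55.5, 61.5 and 62.6 (log2FC 0.71, adjusted p = 0.00159, and relative log2FC 1.22). SEMA3C, a secreted semaphorin, was lower, with a relative log2FC of -0.63. HEY1, a transcriptional repressor of the Notch pathway, had a relative log2FC of 1.10, and CRABP2, which carries retinoic acid to its nuclear receptor, one of 0.91. Over all genes HEY1 was not called with RLE size factors (0.41, adjusted p = 0.107), nor without replicate 2 (0.45, adjusted p = 0.104) or 3 (0.51, adjusted p = 0.0653) of the third experiment. CRABP2 was not called there with RLE size factors (0.21, adjusted p = 0.407), nor without replicate 2 of the second (0.32, adjusted p = 0.0916) or replicates 2 (0.27, adjusted p = 0.284) or 3 (0.27, adjusted p = 0.265) of the third. Of protein-coding genes with clear rises, NXPH4, a neurexin ligand, and CDH11, a cadherin of mesenchymal cells, were chosen after their values were seen. NXPH4 had 19, 13.4 and 21.8 CPM and then 30.5, 44.1 and 46.7, a log2FC of 1.15 (adjusted p = 0.000104). CDH11 had 25.8, 31 and 30.7 CPM and then 47.7, 54.1 and 49.8, a relative log2FC of 1.31.

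The genes closest to the study's question, the processing of APP and transport by ABC proteins, moved as lists close to the typical expressed gene. Of 25 genes of APP and its secretases above background, 7 (28%) were higher and 4 (16%) lower in the relative fit, with a median of 0.10. The shares over all genes above background were 21.7% and 29.2%. In the fit of all genes 0 of these 25 were higher and 16 lower. The APP gene of the cell was an entry apart from the transgene, and whether transgene reads also fell on it was not tested. It stood at 3885, 3373 and 3043 CPM in the second experiment and at 2124, 2513 and 2346 in the third. Its groups did not overlap and its log2FC was -0.56 (edgeR adjusted p = 0.00892), but against expressed genes it was -0.04 (adjusted p = 0.787). Without replicate 3 of the third experiment the former was -0.65 (adjusted p = 0.0605). APH1A, a subunit of gamma-secretase, had a relative log2FC of -0.63. The endogenous ABCC1 gene (chr16 of GRCh37) had 125, 115 and 111 CPM and then 102, 108 and 102, a log2FC of -0.17 (adjusted p = 0.244) over all genes and 0.36 (adjusted p = 0.00128) relative to expressed genes, so that its sign depends on the scale. With the GC and length offsets it was 0.03 (adjusted p = 0.802) and not called. Of 11 ABC transporter genes above background, 3 were higher and 3 lower in the relative fit, and 0 and 7 in the fit of all genes. TIMP3, an inhibitor of metalloproteinases, had 7.92, 10.6 and 11.4 CPM and then 10.9, 11.4 and 9.20, a log2FC of 0.08 (adjusted p = 0.795), at 3.41 times the background. CD38, an ectoenzyme that consumes NAD, had 1.88, 4.26 and 3.91 CPM and then 8.04, 5.74 and 3.96, a log2FC of 0.82 (adjusted p = 0.111), at 1.04 times the background. CD38 was called with at least 10 counts required in every library (log2FC 1.02, adjusted p = 0.0421) and with the spread shared across 12 libraries (0.82, adjusted p = 0.0390), and was -0.70 (adjusted p = 0.430) with the background subtracted. TIMP3 and CD38 overlapped between the experiments, and neither reached 5 times the background.

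Over all genes above background 21.7% were higher and 29.2% lower in the relative fit. Replication-dependent histones had 8 of 26 higher and 9 lower in the relative fit, with a median of 0.02, and sterol and fatty acid synthesis 5 of 24 higher and 8 lower, with a median of -0.03. The hypoxia list had 4 of 16 higher and 7 (43.8%) lower, with a median of -0.19, and the p53 targets 4 of 14 higher and 2 lower, with a median of 0.01. HOX genes had 4 of 8 (50%) higher and 1 lower, with a median of 0.37, whereas in the fit of all genes 0 of these 8 were higher and 2 lower. The counts were 2 higher and 3 lower of 10 in the Wnt pathway list, 3 and 5 of 14 in that of BMP and TGF-beta signaling and 2 and 1 of 9 in that of the Notch pathway. Of 7 genes of class I antigen presentation above background 1 was higher and 1 lower, the latter being B2M, the light chain of these molecules. B2M fell from 253, 242 and 254 CPM to 60.5, 62.1 and 75.2, a relative log2FC of -1.40. Only 2 interferon-stimulated genes were above background, neither of them called in the relative fit.

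Under the rule for named genes, the 12 largest rises above background in the fit of all genes were miRNA, Y RNA and small nuclear RNA entries, 2 processed pseudogenes, a T cell receptor joining segment and a long noncoding RNA. Each had between 0 and 28 counts per library in the second experiment and between 8 and 72 in the third. MIR548AP had 0, 0 and 0 counts and then 9, 12 and 11, at most 3 counts per library being taken as the limit of a count of 0. It passed the requirement on level only through the libraries of the third experiment, in which the olfactory receptor background was higher too. The 12 largest falls were of another kind. They were RAB27B, EIF3E, DRAM2, NPY, RPL7, LDHB, SPOCK3, ZFAS1, 2 RNAs of the SNORD114 cluster, a pseudogene of RPS24 and MIR3685. DRAM2, a lysosomal membrane protein tied to autophagy, went from 41.8, 52.9 and 43.1 CPM to 4.98, 7.08 and 5.91, a relative log2FC of -2.42.

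The empty vector cells of the same experiments gave the same comparison without the ABCC1 insert. For 10642 genes above background the relative log2FC of the lines had a Pearson correlation of 0.82 and a Spearman correlation of 0.85, given as a description, the lines having no library in common but sharing the experiment, the kit and the parent cells. In the empty vector cells 7216 of 37283 genes passed over all genes (19.4%), 5.77% higher and 13.6% lower. Of the genes above background 4528 passed in the relative fit (42.5%), 2683 lower (25.2%) and 1845 higher (17.3%). Of the ribosomal protein genes 62 of 80 were lower there, with a median relative log2FC of -1.20, and of the respiratory chain genes 45 of 73, with a median of -0.81. EIF3E had a relative log2FC of -2.43 there, RAB27B -2.06 and TXN -1.98, against -2.64, -2.79 and -1.78 in the ABCC1 cells. The immediate early list had a median of 0.10 there, with 1 of 14 higher, against 0.45 and 8 of 14 in the ABCC1 cells, but in the test of the difference between the lines, over all genes, 0 of 26 members were called and 3 (11.5%) had an unadjusted p below 0.05. IGF2 had a relative log2FC of 0.96 and MKI67 one of 0.54.

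**Figure D4:**
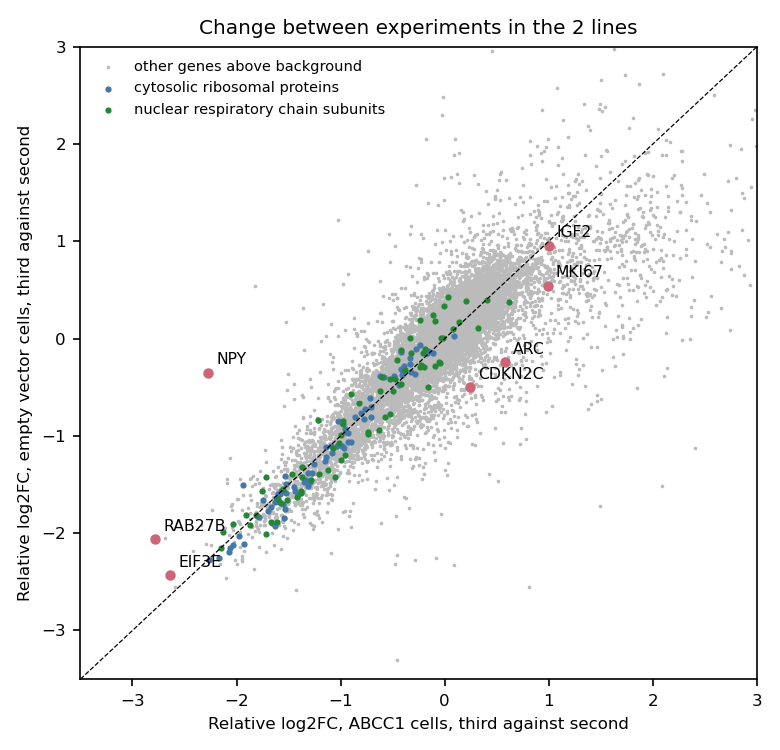
Relative log2FC, the third against the second experiment, in the ABCC1 cells (horizontal axis) and in the empty vector cells (vertical axis) for genes above background; each point is a gene, the dashed line marks equal change, and 31 genes lie outside the axes. Ribosomal protein and respiratory chain genes lie along the line in the lower left, and NPY lies far above it.

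The difference between the lines was tested as an interaction over the 12 libraries. Of 41448 genes tested, 3 passed (0.00724%), 2 with a higher change in the ABCC1 cells (0.00483%) and 1 with a lower (0.00241%), and 2633 (6.35%) had an unadjusted p below 0.05. In the fit of 9605 genes above background over these libraries 3 passed (0.0312%), 2 higher (0.0208%) and 1 lower (0.0104%), and 799 (8.32%) had an unadjusted p below 0.05. The number was 23 without ABCC1 replicate 3, 7 without empty vector replicate 2 and 6 without ABCC1 replicate 1 of the second experiment in the fit of all genes. No member of any gene list passed in the fit of all genes. In that fit the change of the ribosomal protein, respiratory chain and immediate early genes was therefore not shown to differ between the lines. List members were not counted in the fit of genes above background. There ARC, a neuronal early response gene, passed with a difference of 0.88 on the log2 scale (edgeR adjusted p = 0.0497).

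NPY, the neuropeptide that sympathetic neurons release with noradrenaline (chr7:24323782-24331484, GRCh37), passed in both fits. In the ABCC1 cells it stood at 86.2, 60.3 and 39.9 CPM in the second experiment and at 7.32, 10.5 and 8.26 in the third. In the empty vector cells it had 22.7, 20.5 and 20.2 and then 9.18, 13.8 and 12.8. The fall in the ABCC1 cells exceeded that in the empty vector cells by 2.01 ± 0.298 on the log2 scale (edgeR adjusted p = 0.00193), and by 1.87 among genes above background. The lines were apart in the second experiment and overlapped in the third.

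CDKN2C, an inhibitor of the cell cycle kinases CDK4 and CDK6, and ARC, a neuronal early response gene that regulates synapses, passed among the genes above background alone. CDKN2C had 95, 88 and 94.9 CPM in the ABCC1 cells of the second experiment and 67.7, 76.7 and 81.6 in the third, while the empty vector cells went from 79.7, 84.8 and 93.3 to 40.7, 52.8 and 37.2. ARC stayed between 210 and 294 CPM in all 6 libraries of ABCC1 cells, and in the empty vector cells it went from 88.7, 87.3 and 86.7 to 46.9, 67.7 and 45.2. The differences were 0.79 and 0.88 on the log2 scale, both with an edgeR adjusted p of 0.0497. Neither passed in the fit of all genes, where both had an adjusted p of 0.71.

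ANXA10, an annexin, and JCHAIN, the joining chain of polymeric immunoglobulins, passed in the fit of all genes, with differences of 4.14 (edgeR adjusted p = 5.92e-05) and 4.05 (adjusted p = 0.00193). They were below the level required of named genes and are given because only 3 genes passed. ANXA10 had 168, 294 and 277 counts in the empty vector cells of the second experiment and 26, 31 and 21 in the third. In the ABCC1 cells it had 12, 16 and 17 and then 35, 23 and 28, where the olfactory receptor background of each library would give 6.60 to 24.2 and then 25 to 30.5 counts. JCHAIN had 72, 127 and 111 counts in the empty vector cells and then 24, 14 and 15, and in the ABCC1 cells 10, 10 and 15 and then 38, 33 and 30. Counts above background were therefore seen in the empty vector cells of the second experiment, and the ABCC1 values moved with the background.

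**Figure D5:**
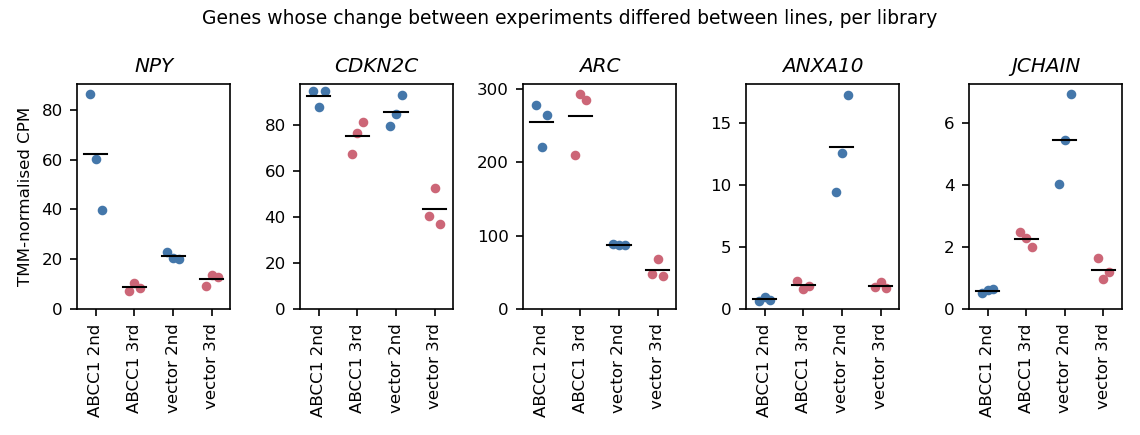
Normalised counts (CPM) of the 5 genes whose change differed between the lines; each point is a library, each bar the mean of 3, in ABCC1 and empty vector cells of the second (2nd) and the third (3rd) experiment. NPY is highest in the ABCC1 cells of the second experiment, while ANXA10 and JCHAIN are high only in the empty vector cells of the second experiment.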

How the data were processed

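RNA-seq libraries of ABCC1-overexpressing BE(2)-m17 cells from the second and the third experiments were analysed (n = 3 each), with the 6 empty vector libraries as a reference. The authors prepared both experiments with a SMARTer Stranded Total RNA-Seq Pico kit, aligned the reads with STAR 2.7.3a to GRCh37, and deposited unnormalised counts per gene from featureCounts (Subread 2.0.0) without regard to strand. The 57905 Ensembl genes were used. The 92 spike-in and 6 vector entries were left out of library sizes and tests, and the vector entries took 0.354% to 1.32% of the counts.

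The edgeR package 4.0.16 in R 4.3.3 fitted the counts (filterByExpr minimum count 10, TMM, robust quasi-likelihood, two-sided, Benjamini-Hochberg, adjusted p at most 0.05). CPM are TMM-normalised. The relative fit used genes at 5 or more times the olfactory receptor background. DESeq2 1.42.0 and limma 3.58.1 served as alternatives, and offsets for GC content and length used mgcv 1.9.3. Pairs of libraries within a group differed by a chi-square of 3.99 to 20.0 per degree of freedom and were kept as separate replicates. On simulated data the test recovered 60% of 100 genes changed by 1 and 89% of 100 changed by 2 (log2) among 32014 genes, and the interaction test 32% and 90% among 38259. The simulated libraries shared a common profile apart from the changed genes, with no shift of background between the groups. These figures therefore do not cover calls that depend on the scale.

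Named genes were the 12 largest rises and falls called above background without overlap, up to 4 members of each list with the largest change plus the most abundant, ABCC1, APP, TIMP3, CD38 and MYCN, and the largest interactions. Some genes are not reported here. The comparison, the gene lists and this rule were chosen with earlier results of these data known. Genes were named from the deposited identifiers and RefSeq tables, and promoter windows from RefSeq GRCh38.p14.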

Additional observations from a re-analysis of the deposited data

Results flagged for a closer look

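In 5 genes the change between the experiments differed between the ABCC1 and the empty vector cells by the interaction test of edgeR. The difference (log2, ABCC1 minus empty vector) was -2.01 for NPY (adjusted p = 0.00193), 4.14 for ANXA10 (adjusted p = 5.92e-05) and 4.05 for JCHAIN (adjusted p = 0.00193) in the fit of all genes. It was 0.79 for CDKN2C and 0.88 for ARC among genes above background (adjusted p = 0.0497 each). With DESeq2 the values were -2.16 for NPY, 4.06 for ANXA10 and 3.98 for JCHAIN, all called, and COL14A1 was called in addition (1.31, adjusted p = 0.0232). With DESeq2 over all genes CDKN2C was at 0.57 (adjusted p = 0.683) and ARC at 0.64 (adjusted p = 0.678), neither of them called. In the libraries of the first experiment, for which the labels and the study's methods name different library kits, ANXA10 had 297, 212 and 201 counts in the empty vector cells and 0, 0 and 4 in the ABCC1 cells, and JCHAIN had 115, 81 and 83 and then 5, 7 and 8.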

How the results depend on the processing

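The 11304 genes called became 5412 among genes above background, 6548 with the background subtracted (limma-trend) and 4363 with GC and length offsets. Those higher (4251) became 2306, 2026 and 1988 in these fits, 2468 in a replicate block and 7221 with a spread shared across 12 libraries, and those lower (7053) became 3106, 4522 and 2375. Among genes above background without replicate 1 of the second experiment there were 5457, 2406 higher and 3051 lower. Leaving out 1 library gave 6943 to 13683 called, 964 to 6434 higher and 5979 to 7249 lower. The other alternatives (DESeq2, limma-voom, RLE size factors, no filter, at least 10 counts in every library, thinned libraries, no mitochondrial genes) gave 3990 to 6133 higher and 5520 to 7758 lower. The replicate numbers did not pair the libraries: the deviations of same-numbered libraries had correlations of -0.13, -0.01 and -0.01, and the block gave 8767 genes in all, 6299 of them lower. The 3 interactions (2 higher) became 7 (6 higher) without the filter on low counts and 5 (4 higher) with thinned libraries, and 3 to 23 (2 to 22 higher) without 1 library, the largest without ABCC1 replicate 3 of the second experiment, followed by 7 without empty vector replicate 2 and 6 without ABCC1 replicate 1 of that experiment. The 1 lower call was kept in number throughout, and the block changed none of these counts. Shares of the gene classes moved by less than the spread between replicates without any 1 library. The share of nuclear long noncoding RNAs, never separated, ranged from -0.03 to 0.17 percentage points.

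Of 1584 recomputed log2FC of 84 genes, 1462 kept their direction and call, 23 gained and 80 lost a call, and 19 changed sign. With the GC and length offsets MT-ND2 was 0.12, ISL1 0.066, SNAP25 0.20, ABCC1 0.030 and RPL36 0.14. Among genes above background ABCC1 was 0.36 and RPL36 0.094, and without replicate 1 of the second experiment in that fit APP was 0.033, ABCC1 0.38 and RPL36 0.15. With the background subtracted ABCC1 was 0.28, RPL36 0.074 and CD38 -0.70, and with at least 10 counts in every library ABCC1 was 0.037. TIMP3 was -0.082 with DESeq2 and with RLE size factors and ranged from -0.084 to 0.17 without 1 library. HSPA1A ranged from -0.021 to 0.32 without 1 library. Apart from the restriction to fewer genes or libraries in some of these settings, the cause of the changes was not tested. The limit of a count of 0 was 3 counts per library.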
